A study of Homo sapiens with 12 samples.

Results

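The genes described here are 10 integrin subunits, ITGA2, ITGA3, ITGA5, ITGA6, ITGAV, ITGB1, ITGB3, ITGB4, ITGB5 and ITGB6, taken as a named list together with every probe set that the array annotation gives to only 1 of these symbols. That rule found 30 probe sets for 9 of the 10 genes, out of 19775 genes with such a probe set on the array. The 4 probe sets of ITGB6 also carry the symbol LINC02478, so ITGB6 has no probe set of its own here. The study measured RNA of the human lung adenocarcinoma cell lines CL1-5 and CL1-0 on Affymetrix expression arrays after a direct-current electric field, 3 biological replicates in each of 4 groups. The groups were CL1-5 cells with a field of 300 mV/mm for 2 hours, CL1-5 cells kept at 0 mV/mm, CL1-0 cells with the field and CL1-0 cells kept at 0 mV/mm. All 4 groups shared the rest of the handling. The cells grew overnight at 37C under medium flow in a microfluidic chip, were kept in serum-free DMEM for the 2 hours of the field or of no field, and were then lifted with trypsin, which cuts proteins at the cell surface, before the RNA was taken. Each group is a population of 1 cell line, so a difference between CL1-5 and CL1-0 is a difference between 2 lines and not between 2 classes of tumour.

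Integrins are receptors in the cell membrane that bind the extracellular matrix outside and the actin or keratin cytoskeleton inside. Each is a pair of an alpha and a beta chain, and the pair decides the ligand. ITGB1 is the shared beta chain. With ITGA2 it binds collagen, with ITGA3 or ITGA6 it binds laminin, and with ITGA5 it binds fibronectin through the tripeptide motif known as RGD. ITGA6 can instead pair with ITGB4, which ties laminin to keratin filaments in hemidesmosomes, the anchoring plaques of epithelial cells. ITGAV pairs with ITGB3, ITGB5 or ITGB6 into receptors for vitronectin and other RGD proteins, and the pair with ITGB6 is known in epithelia, lung included, for activating latent TGF-beta. In crawling cells integrins are the links through which adhesions form and are released.

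The arrays do not all stand on the same footing. Array medians of the signal ran from 60.7 to 72.4 units. The dap control transcript, one of the poly-A spike-ins that can be added to the RNA before labelling, gave 788.9 to 1063 units on 8 arrays and 5.92 to 21.2 units on the other 4, which are replicate 1 of each group. These 4 arrays differed from the others in more than the spike-ins. Over all probe sets tested, 30.4% in CL1-5 and 26% in CL1-0 differed by more than 1 log2 unit, in either direction, between replicate 1 and the mean of replicates 2 and 3. No like share was taken with replicate 2 or 3 set apart, so these shares have no baseline. Among the integrins, the probe set 205032_at of ITGA2 was 13.8 times as bright on replicate 1 as on the others in CL1-5, ITGA6 probe set 215177_s_at 6.24 times, ITGA3 4.12 times and ITGA5 3.26 times. The ITGB4 probe sets 204989_s_at and 204990_s_at were 14.8 and 11 times as bright. ITGA2 probe set 227314_at was lowest on replicate 1 in both CL1-5 groups, with a ratio of 0.686. ITGA6 probe set 201656_at, with a ratio of 0.756, was lowest on replicate 1 with the field and highest on replicate 1 without it. The lead ITGB1 probe set, 211945_s_at, had a ratio of 1.02 in CL1-5 and 1.22 in CL1-0. The ratio of ITGB1 probe set 1553530_a_at was 1.98 in CL1-5 and 2.69 in CL1-0. In CL1-0 the ITGA2 probe set 227314_at read 3.65 and 47.8 units on replicate 1 and 87.7 to 254 units on the others. Each group holds 1 array without spike-in signal. The line differences of the integrin chains are therefore also given on the 8 arrays with spike-in signal. For some, fits with replicate number or spike-in signal as a block are given too. The part of this shift in the results beyond these values was not tested.

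**Figure D1:**
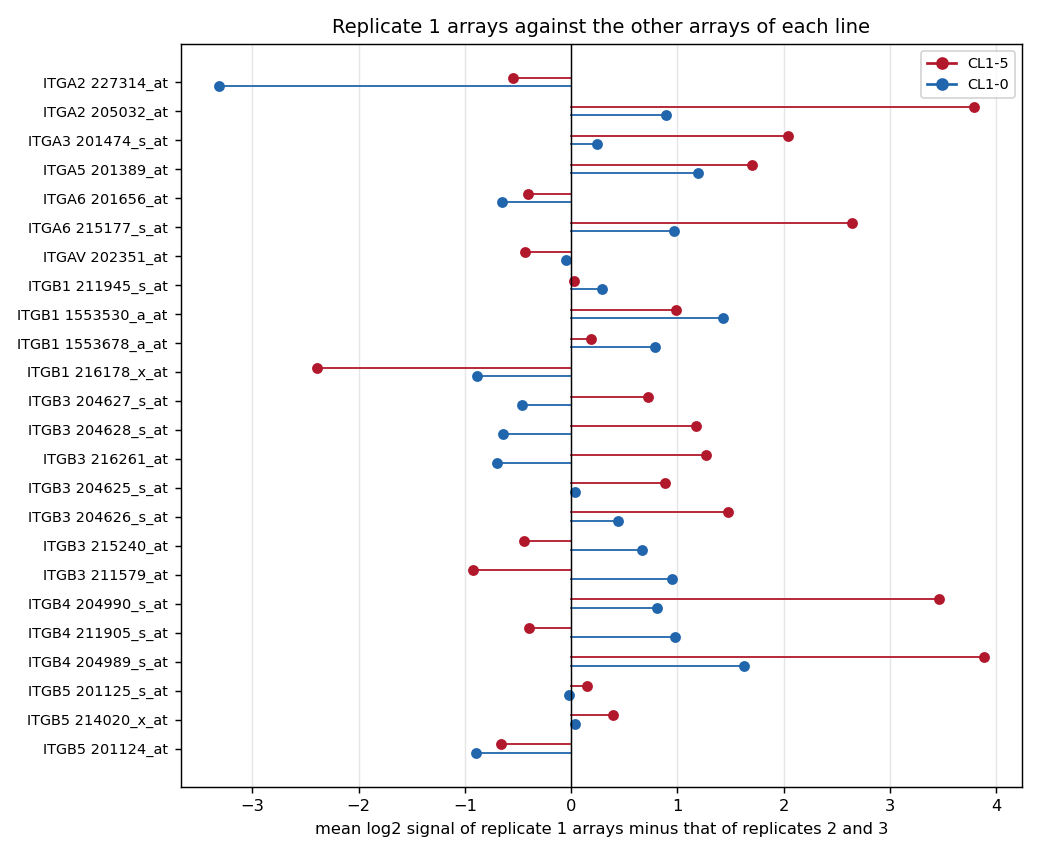
Each of the 24 integrin probe sets tested is a row, and the x axis is the mean log2 signal of replicate 1 minus the mean of replicates 2 and 3, in CL1-5 (red, 2 arrays against 4) and CL1-0 (blue, 2 arrays against 4). Points right of 0 were brighter on replicate 1. The ITGA2 probe set 205032_at lies far to the right in CL1-5 while the ITGA2 probe set 227314_at lies to the left in both lines.

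RefSeq start-site windows, each 250 bases before to 50 bases after an annotated start on GRCh38.p14, were at hand for 7 of the 10 genes. The 4 printed here come from those 7 genes and cover different line patterns. ITGA2 and ITGA6 were higher in CL1-5, ITGAV was lower in CL1-5, and the ITGA5 call depends on the fit. ITGA3 and ITGB3, which also differed between the lines, have no window. Capitals mark matches, on either strand, to 4 motifs: GGGCGG, the GC box bound by SP1 family factors; TGANTCA, bound by AP-1; TATAAA, the TATA box; and CCGGAAG, bound by ETS factors. No match of one of these motifs overlaps another in the 4 windows. The ITGA2 window is chr5:52989102-52989401, plus strand, the ITGA6 window chr2:172427336-172427635, plus strand, the ITGAV window chr2:186589806-186590105, plus strand, and the ITGA5 window chr12:54419217-54419516, minus strand.

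ITGA2: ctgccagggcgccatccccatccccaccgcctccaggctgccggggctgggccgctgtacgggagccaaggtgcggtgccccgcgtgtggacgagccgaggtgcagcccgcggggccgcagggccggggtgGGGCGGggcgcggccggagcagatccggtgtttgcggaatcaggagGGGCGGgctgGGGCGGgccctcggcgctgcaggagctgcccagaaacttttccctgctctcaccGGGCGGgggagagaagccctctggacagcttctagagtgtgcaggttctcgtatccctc
ITGA6: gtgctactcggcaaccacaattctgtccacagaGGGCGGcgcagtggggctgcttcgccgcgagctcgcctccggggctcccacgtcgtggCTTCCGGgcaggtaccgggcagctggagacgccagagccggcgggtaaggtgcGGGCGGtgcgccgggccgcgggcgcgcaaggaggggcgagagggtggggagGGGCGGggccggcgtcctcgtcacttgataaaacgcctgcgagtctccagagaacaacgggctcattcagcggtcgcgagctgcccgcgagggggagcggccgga
ITGAV: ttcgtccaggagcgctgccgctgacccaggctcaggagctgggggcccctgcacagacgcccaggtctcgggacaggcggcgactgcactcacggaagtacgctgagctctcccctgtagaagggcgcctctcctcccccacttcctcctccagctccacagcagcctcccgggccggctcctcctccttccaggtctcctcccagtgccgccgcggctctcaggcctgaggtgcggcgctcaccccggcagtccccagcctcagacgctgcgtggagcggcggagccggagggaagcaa
ITGA5: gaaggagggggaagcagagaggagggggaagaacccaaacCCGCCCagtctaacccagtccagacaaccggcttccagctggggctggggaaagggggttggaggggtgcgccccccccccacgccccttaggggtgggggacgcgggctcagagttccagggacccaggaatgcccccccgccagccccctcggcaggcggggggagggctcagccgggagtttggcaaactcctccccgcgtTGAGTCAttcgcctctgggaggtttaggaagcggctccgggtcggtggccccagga

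All 4 windows are rich in G and C, at 72.7% for ITGA2, 72% for ITGA6, 70.7% for ITGAV and 69.3% for ITGA5. The ITGA2 window holds 4 GC boxes, whose first bases lie 119, 73, 63 and 9 bases before the start. In the ITGA6 window, which was the richer in CpG of 2 in the table, there are 3 GC boxes and 1 ETS match. This window begins at the first base of the annotated gene, so its start and all of its matches lie inside the gene. The ITGAV window, also the richer in CpG of 2, holds none of these letters. ITGA5 has 1 AP-1 match, 6 bases before the start, and 1 GC box. Of the 35116 windows in the table, 45% hold a GC box, 10.3% the ETS letters, 7.71% the AP-1 letters and 11.5% the TATA letters, so the GC boxes are common to many genes. The matches are letters in a reference sequence and were not measured in these cells.

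Of the 9 integrin genes, 5 differed between the 2 lines in both field conditions, and none passed the test for the field. In both field conditions ITGA2, ITGA3, ITGA6 and ITGB3 were higher in CL1-5 than in CL1-0 and ITGAV was lower. ITGB5 was higher in CL1-5 in the cells with the field, and ITGA5, ITGB1 and ITGB4 did not pass the test in either condition. The test was limma's moderated fit of log2 signal over all 12 arrays and all 31890 probe sets bright enough to be tested, and a probe set passed with a Benjamini-Hochberg adjusted p under 0.05. Of the 30 integrin probe sets, 24 were bright enough. With the field 12 passed, 11 of 5 genes higher in CL1-5 and 1 lower, where 13.4% of all probe sets tested passed, 7.03% higher and 6.41% lower. Without the field 11 passed, 10 of 4 genes higher and 1 lower, where 12.1% of all passed, 6.53% higher and 5.58% lower. A probe set that is bright in only 1 line had to differ to be tested at all, so these counts describe the probe sets and are no measure of integrins as a class. The median line difference of the 24 was 1.42 log2 units with and 1.71 without the field, beside −0.080 and −0.013 over all probe sets tested. With replicate number as a block, since same-numbered arrays and above all those of replicate 1 deviated together, 16 and 15 passed. Of all probe sets, 31.6% and 28.5% then passed too. On the 8 arrays with spike-in signal 17 and 16 passed, against 25.3% and 23.9% of all. RNA came from whole populations, so less RNA per cell cannot be told apart from fewer cells that make the transcript.

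**Figure D2:**
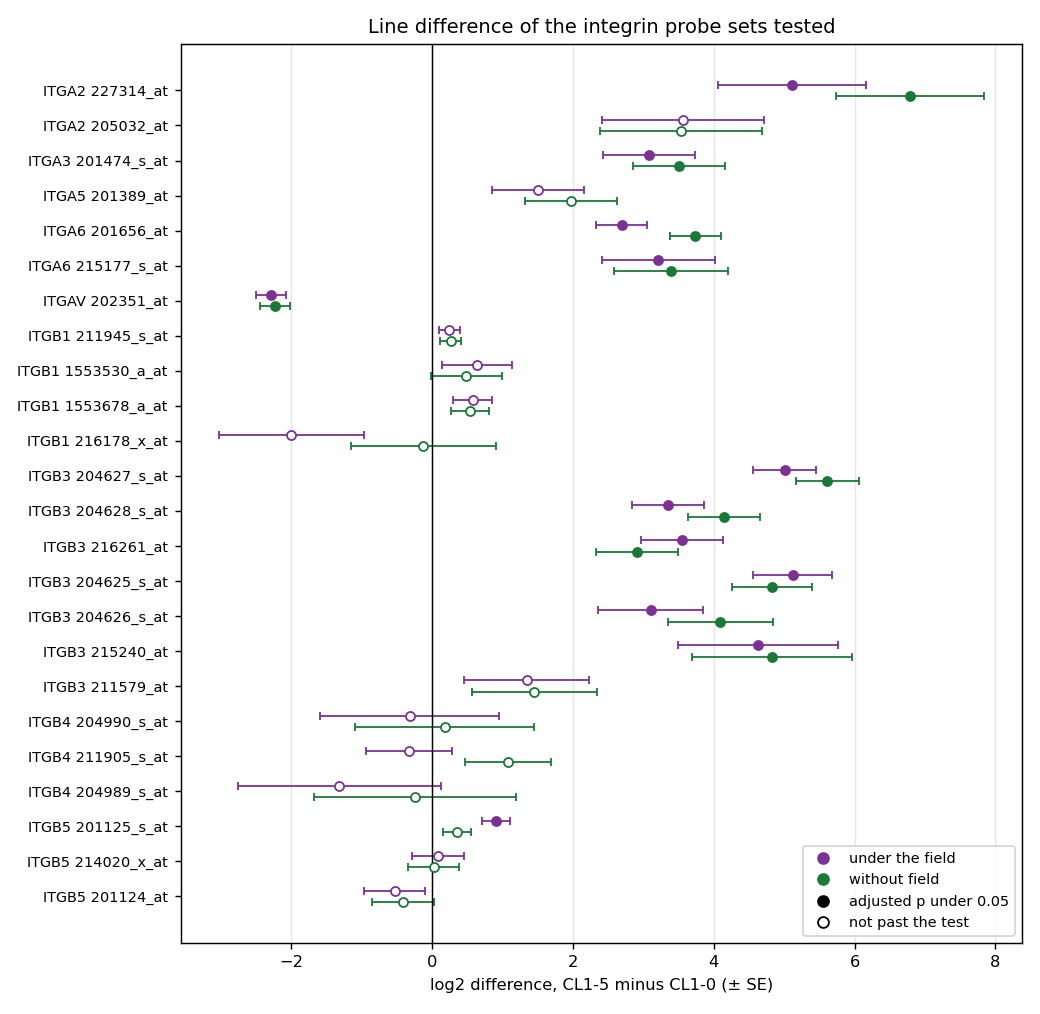
The 24 integrin probe sets tested run down the page, and the x axis is the log2 difference of CL1-5 minus CL1-0, with its standard error as a bar, with the field (purple) and without it (green), 3 arrays per group. Filled points passed the test at an adjusted p under 0.05. The ITGA2, ITGA3, ITGA6 and ITGB3 points lie right of 0, the ITGAV point lies left of 0, and the ITGB1 points of the bright probe sets lie close to 0.

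ITGA2, the alpha chain of the main epithelial collagen receptor, was much higher in CL1-5. Its lead probe set, the brightest of the gene, was 227314_at, which gave 3036, 3688 and 5235 on the CL1-5 arrays with the field and 2848, 3619.8 and 4833 on those without it, and 47.8, 254 and 117 on the CL1-0 arrays with the field and 3.65, 116 and 87.7 on those without it. Every CL1-5 array was above every CL1-0 array, and the CL1-5 values stayed within a narrow band while the CL1-0 values spread from 3.65 to 254. The log2 difference was 5.11 ± 1.05 (SE) with the field (limma, adjusted p = 0.00737) and 6.79 ± 1.05 without it (limma, adjusted p = 0.00124). Some CL1-0 values lay under the array median, where a low reading is only a bound. Counting every such value as the median itself, the mean difference over all arrays was 30.8-fold with the field and 42.3-fold without it. These folds bound only the low readings and leave out the spread between arrays. On the arrays with spike-in signal the differences were 4.67 with and 5.38 without the field, both past the test (limma, adjusted p = 1.03e-05 and 3.91e-06). The other ITGA2 probe set, 205032_at, gave 4384, 238 and 312 on the CL1-5 arrays with the field and 2579, 231 and 204 on those without it, and 76.8, 67 and 38.6 on the CL1-0 arrays with the field and 74.2, 58.4 and 17.9 on those without it. It too separated the lines on every array, but its replicate 1 arrays of CL1-5 stood far above the rest. Its differences of 3.56 ± 1.15 with and 3.54 ± 1.15 without the field missed the threshold (limma, adjusted p = 0.0632 and 0.0697), and passed it with the replicate block (limma, adjusted p = 0.0013 and 0.00148). Over the 8 spike-in arrays they were 2.42 and 2.75 (limma, adjusted p = 0.0089 and 0.00484).

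ITGA3, the alpha chain of a laminin receptor found on most epithelia including the lung's, has 1 probe set here. Its signal was 2528, 585 and 1109.8 on the CL1-5 arrays with the field and 3208, 600.4 and 586 on those without it, and 133, 111 and 184 on the CL1-0 arrays with the field and 122, 69.8 and 91.6 on those without it. The lines did not overlap, and replicate 1 of CL1-5 was the highest array in both of that line's groups. The log2 difference was 3.08 ± 0.65 with the field, 8.45-fold higher in CL1-5 (limma, adjusted p = 0.00869), and 3.50 ± 0.65 without it, 11.3-fold higher (limma, adjusted p = 0.00414). Taken by replicate number, it was 4.25, 2.39 and 2.59 with the field and 4.72, 3.10 and 2.68 without it. Among the 8 spike-in arrays, that is without the replicate 1 arrays, the differences were 2.49 and 2.89 (limma, adjusted p = 0.000662 and 0.000264).

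ITGA6, the laminin-binding alpha chain that pairs with ITGB1 or ITGB4, was higher in CL1-5 with both of its probe sets. The lead probe set, 201656_at, gave 1715, 3315 and 4279 on the CL1-5 arrays with the field and 6269.5, 4696 and 5305 on those without it, and 351, 634 and 408 on the CL1-0 arrays with the field and 283, 550.4 and 423 on those without it. No CL1-0 array reached the lowest CL1-5 array, which was replicate 1 with the field. The difference was 2.69 ± 0.37 log2 units with the field, 6.45-fold (limma, adjusted p = 0.000513), and 3.74 ± 0.37 without it, 13.3-fold (limma, adjusted p = 4.85e-05). On the arrays with spike-in signal it was 2.89 and 3.37 (limma, adjusted p = 1.89e-05 and 6.35e-06). The second, 215177_s_at, ran from 1181 to 10758, median 1717, on the 6 CL1-5 arrays and from 155 to 466, median 263, on the 6 CL1-0 arrays. Its differences of 3.21 ± 0.81 with and 3.39 ± 0.81 without the field passed (limma, adjusted p = 0.0213 and 0.0168). With the field the call was lost when CL1-5 field replicate 1 or CL1-0 field replicate 2 or 3 was left out (limma, adjusted p = 0.0650, 0.0605 and 0.0885). In the cells without the field it was lost without CL1-5 no field replicate 1 or CL1-0 no field replicate 2 or 3 (limma, adjusted p = 0.0505, 0.0596 and 0.0670). Over the 8 spike-in arrays the differences were 2.67 and 2.83 (limma, adjusted p = 7.86e-05 and 5.1e-05).

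ITGB4, the beta chain of the hemidesmosome receptor, did not pass in either line comparison with any of its 3 probe sets tested. The lead, 204990_s_at, gave 178, 48.9 and 71.4 on the CL1-5 arrays with the field and 951, 8.90 and 62.5 on those without it, and 139, 74.6 and 117 on the CL1-0 arrays with the field and 116, 34.4 and 91.8 on those without it. One array, CL1-5 no field replicate 1, stood far above its group mates, and the lines overlapped widely. The log2 difference was −0.32 ± 1.27 with the field and 0.18 ± 1.27 without it (limma, adjusted p = 0.915 and 0.967). Probe set 204989_s_at, which differed by −1.32 ± 1.44 with and −0.24 ± 1.44 without the field, had the opposite sign in the cells without it. The third tested, 211905_s_at, differed by −0.32 and 1.07, and the 2 other probe sets of ITGB4 were too dim to test. Without replicate 1 the lead differed by −0.66 and −1.25 (limma, adjusted p = 0.636 and 0.346). At the standard errors over all arrays a difference of 1 log2 unit in ITGB4 was not detectable.

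Among the RGD-binding chains, ITGB3 and ITGAV, which can form 1 receptor together, differed in opposite directions between the lines. ITGB3, the beta chain of the vitronectin receptor, was much higher in CL1-5. Lead probe set 204627_s_at gave 2652, 1946 and 3113 on the CL1-5 arrays with the field and 4966, 1704 and 2246 on those without it, and 43.3, 128 and 87.7 on the CL1-0 arrays with the field and 64.6, 46.5 and 54.3 on those without it. The lines were far apart on every array, and several CL1-0 values lay near or under the array median. The log2 difference was 5.01 ± 0.45 with the field (limma, adjusted p = 2.76e-05) and 5.61 ± 0.45 without it (limma, adjusted p = 1.25e-05). Counting values under the array median as that median, the mean ITGB3 difference over all arrays was 27.7-fold with the field and 42.2-fold without it. These folds too leave out the spread between arrays. With replicate 1 of each group left out the differences were 4.54 and 5.28 (limma, adjusted p = 4.67e-06 and 1.69e-06). Of 6 further probe sets tested, 5 passed in both comparisons, with differences of 3.11 to 5.12 log2 units with the field and 2.91 to 4.83 without it. The exception, 211579_at, differed by 1.34 and 1.45 in the same direction (limma, adjusted p = 0.394 and 0.382). With the field the dim 215240_at lost its call when any 1 of 4 arrays was left out, CL1-5 field replicates 2 and 3 and CL1-0 field replicates 1 and 3 (limma, adjusted p up to 0.0761). Probe set 204626_s_at lost it without any 1 of 3, CL1-5 field replicates 1 and 3 and CL1-0 field replicate 3 (adjusted p up to 0.0624). In the cells without the field 215240_at lost its call without CL1-5 no field replicate 2 or 3 (limma, adjusted p = 0.0506 and 0.0519).

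ITGAV, the alpha partner of ITGB3, ITGB5 and ITGB6, was the only one of the 9 integrin genes described here that was past the test in the lower direction. Its single probe set gave 2986, 4631 and 5896 on the CL1-5 arrays with the field and 4257, 4604 and 4286 on those without it, and 19423, 21568 and 22543 on the CL1-0 arrays with the field and 21411, 19211 and 21310.3 on those without it. All CL1-0 arrays exceeded all CL1-5 arrays, and the CL1-0 values lay close together. The log2 difference was −2.29 ± 0.22 with the field, 4.87-fold lower in CL1-5 (limma, adjusted p = 3.85e-05), and −2.24 ± 0.22 without it, 4.71-fold lower (limma, adjusted p = 4.39e-05). By replicate number the differences were −2.70, −2.22 and −1.93 with the field and −2.33, −2.06 and −2.31 without it. Among the 8 spike-in arrays they were −2.08 and −2.19 (limma, adjusted p = 3.5e-06 and 2.52e-06). ITGAV was still a bright probe set in CL1-5, where its lowest array read 2986 units against array medians of 60.7 to 72.4.

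ITGA5, the alpha chain of the classical fibronectin receptor, gave 1247, 561 and 635 on the CL1-5 arrays with the field and 2399.9, 397 and 559.9 on those without it, and 445, 255 and 172 on the CL1-0 arrays with the field and 379, 178 and 131 on those without it. Within each field condition the 3 CL1-5 arrays lay above the 3 CL1-0 arrays, and in both lines replicate 1 was the highest. The log2 differences of 1.5 ± 0.65 with and 1.97 ± 0.65 without the field did not pass (limma, adjusted p = 0.166 and 0.0733). They passed with the replicate block (limma, adjusted p = 0.00195 and 0.000314). On the arrays with spike-in signal they were 1.51 and 1.63, and passed as well (limma, adjusted p = 0.00406 and 0.00281). Leaving out CL1-5 no field replicate 2 alone gave 2.49 log2 units without the field and a pass (limma, adjusted p = 0.0448).

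ITGB5, a beta chain that pairs with ITGAV alone, was modestly higher in CL1-5 with the field. Lead probe set 201125_s_at gave 2694, 2001 and 1991 on the CL1-5 arrays with the field and 1374, 1542 and 1461 on those without it, and 1106, 1325 and 1116 on the CL1-0 arrays with the field and 1194, 1268 and 977 on those without it. The lines did not overlap within either field condition, with the narrower gap in the cells without the field. The difference was 0.90 ± 0.20 log2 units with the field, 1.87-fold (limma, adjusted p = 0.0119), and 0.36 ± 0.20 without it (limma, adjusted p = 0.337). Whether the line difference itself changed with the field is the interaction test given with the field results. Without CL1-0 field replicate 3 the call with the field was lost, at 0.87 log2 units (limma, adjusted p = 0.0514). With the replicate block the difference with the field passed and that without it did not (limma, adjusted p = 0.000915 with and 0.117 without the field), and on the arrays with spike-in signal the differences were 0.71 and 0.43 (limma, adjusted p = 0.0143 and 0.108). The 2 other ITGB5 probe sets tested had smaller or opposite differences with the field, 0.084 for 214020_x_at and −0.53 for 201124_at, neither past the test.

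ITGB1, a beta chain that pairs with ITGA2, ITGA3, ITGA5 and ITGA6 above, was bright on every array and nearly level between the lines. Lead probe set 211945_s_at gave 20708, 22980.1 and 23201 on the CL1-5 arrays with the field and 24172, 20211 and 21632 on those without it, and 20928, 17692 and 18058 on the CL1-0 arrays with the field and 21528, 17172 and 16430.2 on those without it. The lines overlapped in both field conditions. The log2 difference was 0.24 ± 0.15 with the field and 0.27 ± 0.15 without it, and neither passed (limma, adjusted p = 0.352 and 0.325). Probe sets 1553530_a_at and 1553678_a_at differed by 0.63 and 0.58 with the field and by 0.49 and 0.54 without it. They did not pass over all arrays (limma, adjusted p = 0.21 to 0.656) and did with the replicate block (limma, adjusted p = 0.00509 to 0.0325). Without the replicate 1 arrays all 3 bright ITGB1 probe sets passed as higher in CL1-5, the lead by 0.37 with and 0.32 without the field (limma, adjusted p = 0.0121 and 0.0266). A dim probe set, 216178_x_at, had the opposite sign (−2.0 and −0.13) and did not pass, and 3 more were too dim to test.

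Of ITGB6, the epithelial partner of ITGAV, no level is given, because its 4 probe sets are shared with LINC02478. They read 1.13 to 66.6 units, and 46 of their 48 values lay below the median of their own array.

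**Figure D3:**
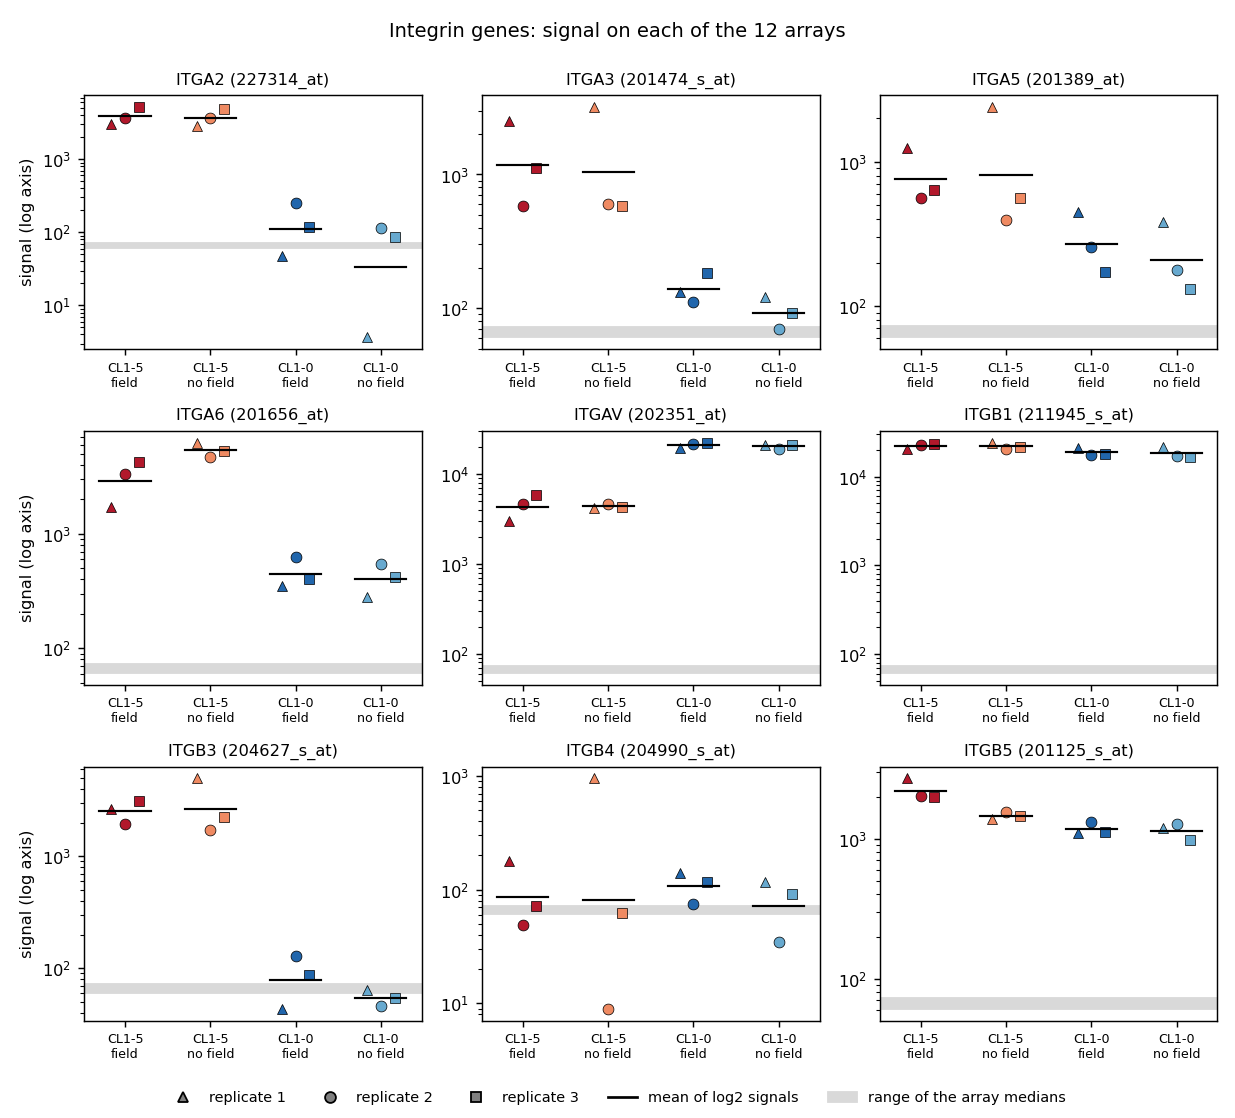
The lead probe sets of the 9 integrin genes have a panel each. The y axis is the signal on a log scale, the groups run from CL1-5 with field and CL1-5 without field to CL1-0 with field and CL1-0 without field, and the triangle, circle and square are replicates 1, 2 and 3. The black line is the mean of the log2 values, and the grey band is the range of the array medians, 60.7 to 72.4 units. ITGA2, ITGA3, ITGA6 and ITGB3 are high in CL1-5, ITGAV is high in CL1-0, ITGB1 is level, and within each line the groups with and without field overlap for most genes.

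On the second question of the design, whether the field changes transcript levels, no integrin probe set passed the test. The count was 0 of 30 (24 tested) in CL1-5, in CL1-0, averaged over the lines and for the difference of the field effect between the lines, where 0% of all probe sets passed by limma as well. At an unadjusted p under 0.05, 2, 0, 1 and 0 of the integrin probe sets and 531, 337, 296 and 382 of all probe sets lay in these 4 comparisons. With the replicate block the integrin counts were again 0, with 4, 2, 4 and 3 at an unadjusted p under 0.05, beside 3142, 1183, 1602 and 2359 of all probe sets, and a smallest adjusted p of 0.374, where 0.00314% of all probe sets passed in CL1-0 and 0% in the other 3 comparisons. Over the 8 spike-in arrays they were 0 too, with 1, 5, 3 and 1 at an unadjusted p under 0.05, beside 1896, 1520, 1511 and 1875 of all, where 0.00314% of all passed in CL1-5 and 0% in the rest. Precision is limited, with 3 arrays a group: the median standard error of a comparison of 2 groups was 0.434 log2 units over all probe sets. The errors given below for single genes are from the fit without a block, which leaves the replicate 1 shift in the spread. With the replicate block, the CL1-5 field error went from 1.05 to 0.46 for ITGA2 probe set 227314_at. It went from 0.81 to 0.16 for ITGA6 probe set 215177_s_at, and from 1.13 to 1.18 for ITGB3 probe set 215240_at. The arrays of a line enter both its field difference and the line differences, so the field and the line values of a gene share arrays.

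ITGB5 had the smallest unadjusted p of the field comparisons in CL1-5. Its 3 CL1-5 arrays with the field, given above, all exceeded the 3 without it. The field difference was 0.60 ± 0.20 log2 units in CL1-5 (limma, unadjusted p = 0.0125, adjusted p = 0.999985), with same-numbered arrays at 0.97, 0.38 and 0.45. In CL1-0 it was 0.049 ± 0.20. The difference between these field effects was 0.55 ± 0.29 (limma, unadjusted p = 0.0804, adjusted p = 0.999938).

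The ITGA6 signal lay lower with the field in CL1-5, in all 3 same-numbered pairs of both probe sets. The lead differed by −0.89 ± 0.37 log2 units (limma, unadjusted p = 0.0312, adjusted p = 0.999985), and its pairs were −1.87, −0.50 and −0.31, the first by far the widest. Probe set 215177_s_at had pairs of −0.41, −0.44 and −0.34. In CL1-0 the lead differed by 0.15 ± 0.37, and the difference between the lines in the field effect was −1.05 ± 0.52 (limma, adjusted p = 0.999938). None of these values passed over all probe sets.

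For ITGA2 the lead probe set lay higher with the field in all 3 pairs of both lines, without passing. In CL1-0, the line in which it was low, it differed by 1.75 ± 1.05 (limma, unadjusted p = 0.122, adjusted p = 0.999978), with pairs of 3.71, 1.14 and 0.41. The first of these rests on a value of 3.65 units, far below the array median, on CL1-0 no field replicate 1. Without that array the CL1-0 difference was 0.16, and with values under the array median counted as that median it was 0.54. In CL1-5, where the probe set was bright, the difference was 0.078 ± 1.05. The other ITGA2 probe set, 205032_at, differed by 0.47 ± 1.15 in CL1-5 and 0.45 ± 1.15 in CL1-0, with all 3 pairs above 0 in each line. ITGA3 and ITGA5 likewise had 3 of 3 CL1-0 pairs above 0, at 0.12, 0.67 and 1.01 and 0.23, 0.52 and 0.39, without passing. In CL1-5 the ITGA3 pairs were −0.34, −0.037 and 0.92 and those of ITGA5 −0.94, 0.50 and 0.18, of both signs.

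None of the remaining chains passed for the field either. ITGAV differed by −0.014 ± 0.22 in CL1-5 and 0.036 ± 0.22 in CL1-0. ITGB1 differed by 0.021 ± 0.15 and 0.046 ± 0.15. By their lead probe sets these 2 genes, with the smallest errors of the set together with ITGB5, bound a field effect more tightly than the other leads. The error of ITGB1 probe set 1553530_a_at in CL1-5 was 0.50. ITGB3 differed by −0.081 ± 0.45 in CL1-5 and 0.52 ± 0.45 in CL1-0, and ITGB4 by 0.077 ± 1.27 and 0.58 ± 1.27. With replicate 1 of each group left out, the ITGB3 lead differed by 1.07 in CL1-0 (limma, unadjusted p = 0.00451, adjusted p = 0.914). Probe set 204628_s_at then differed by 1.01 and 204625_s_at by −1.21, of opposite sign (limma, unadjusted p = 0.0101 and 0.00893, adjusted p = 0.977 and 0.967). The median field difference of the 24 probe sets was −0.048 log2 units in CL1-5 and 0.27 in CL1-0, beside −0.024 and 0.012 over all probe sets tested.

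**Figure D4:**
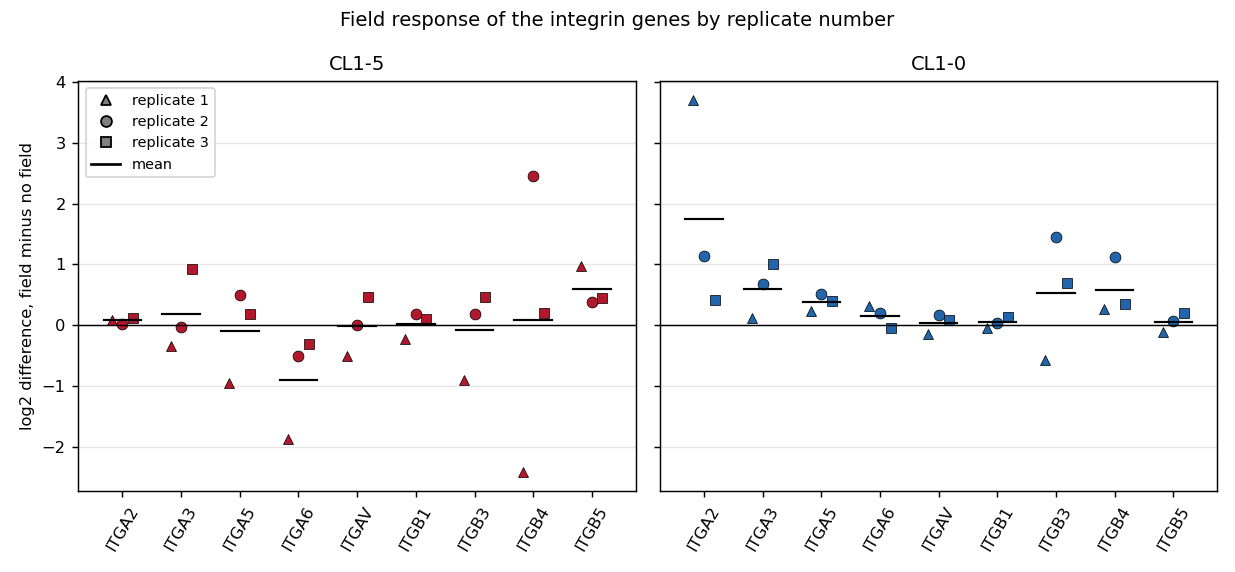
The 9 lead probe sets run along the x axis in 1 panel per line, CL1-5 and CL1-0. The y axis is the log2 signal with the field minus that without it for replicate 1 (triangle), 2 (circle) and 3 (square). For ITGB5 all 3 CL1-5 pairs lie above 0 and for ITGA6 all 3 lie below 0, while the ITGA2 pairs of CL1-0 spread from 0.41 to 3.71.

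To place each chain among all genes, its log2 profile over the 12 arrays was centred on its mean and set against every other gene's, and the nearest genes by root mean square difference were listed. The arrays share the line contrast and the replicate 1 shift, so likeness here is a description. ITGA2, whose own SD over the arrays was 3.43 log2 units, was nearest to CDC42EP3 (0.52) and LY6K (0.77); CDC42EP3 encodes an effector of the small GTPase CDC42. For ITGA3 (SD 1.90) they were PRAG1 (0.40) and MMP14 (0.40), and MMP14 encodes a membrane-bound protease of the matrix. The neighbours of ITGA5 (SD 1.21) were LMNA (0.32) and ACTN4 (0.33), which encode a nuclear lamin and an actin crosslinker of adhesion sites. ITGA6 (SD 1.76) had OSBPL10 (0.39) and IER5 (0.40). The profile of ITGAV (SD 1.2), high in CL1-0, was closest to CDK14 (0.23) and ASPHD1 (0.24). ITGB3 (SD 2.83) lay nearest to ARHGAP29 (0.42) and S100A16 (0.42). For ITGB4 (SD 1.58) the nearest genes lay farther off, SLC9A3-AS1 (0.69) and PPFIA4 (0.80). For ITGB1 (SD 0.18) and ITGB5 (SD 0.43), the chains that varied least over the arrays, the nearest were ZNF747 (0.10) and ANKRD40 (0.12), and SNX15 (0.14) and SGCB (0.16). A profile that varies little lies at a small distance from many others.

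The integrin chains work with ligands, cytoplasmic partners and surface proteins, and lists of these were read at the same line contrast, each gene by its brightest probe set. Of all genes tested this way, 15.6% passed without the field, 8.01% higher in CL1-5 and 7.63% lower. Of the 9 integrin genes 5 passed, 4 higher and 1 lower. The ligand list held 42 genes, of which 30 were bright enough to test, and 10 were higher and 6 lower in CL1-5. LAMB3, a chain of the laminin of epithelial basement membranes, had a mean log2 signal of 12.63 ± 0.99 in CL1-5 cells and 4.85 ± 1.55 in CL1-0 cells (SD, n = 3 each). The difference was 7.78 ± 0.87 (limma, adjusted p = 0.000124). With values under the array median counted as that median it was 85.3-fold. SPP1, the RGD protein osteopontin, went the other way, with 8.84 ± 0.60 in CL1-5 cells and 15.32 ± 0.25 in CL1-0 cells (SD, n = 3 each), a difference of −6.48 ± 0.33 (limma, adjusted p = 5.85e-07), 89.5-fold lower in CL1-5. TNC, the matrix protein tenascin-C, was higher by 6.27 ± 0.71 (limma, adjusted p = 0.00013) and COL6A3, a collagen VI chain, by 5.26 ± 0.70 (limma, adjusted p = 0.000449). FGG, the gamma chain of fibrinogen, was lower (−5.22 ± 0.57; limma, adjusted p = 0.000107). Osteopontin, tenascin-C and fibrinogen are all ligands of ITGAV receptors. With the replicate block 23 of the ligands passed, and on the arrays with spike-in signal 14 were higher and 8 lower, against 34.2% and 29.5% of all genes passing.

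Inside the cell, 27 of 33 tail partners and focal adhesion proteins were bright enough to test. Without the field 6 were higher and 0 lower in CL1-5, where 8.01% of all genes were higher and 7.63% lower. PARVA, the actin-binding parvin of the complex around integrin-linked kinase, was higher by 4.37 ± 0.96 log2 units (limma, adjusted p = 0.0112). With values under the array median counted as that median it was 8.47-fold higher. PTK2B, a tyrosine kinase of the focal adhesion kinase family, was higher by 2.92 ± 0.61 (limma, adjusted p = 0.00825). ACTN4, an actin crosslinker, was higher by 2.32 ± 0.55 (limma, adjusted p = 0.0169). FERMT1, the kindlin of epithelial cells that helps to activate integrins, was higher by 1.99 ± 0.29 (limma, adjusted p = 0.000798), and DAB2, an adaptor for integrin endocytosis, by 1.62 ± 0.37 (limma, adjusted p = 0.0131). ACTN4 lost its call without CL1-5 no field replicate 1 or CL1-0 no field replicate 2 or 3, and DAB2 without CL1-0 no field replicate 3 (limma, adjusted p up to 0.0781 and 0.0582). Under the block 15 of the list passed, and on the arrays with spike-in signal 10 were higher and 3 lower, against 34.2% and 29.5% of all genes passing.

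In the list of 21 surface and trafficking partners, of which 19 were tested, 5 were higher and 2 lower, where 15.6% of all genes passed. With the replicate block 8 passed, and on the arrays with spike-in signal 6 were higher and 2 lower, against 34.2% and 29.5% of all genes. PLAUR, the urokinase receptor, which associates with integrins at the membrane, was higher by 4.78 ± 0.29 (limma, adjusted p = 1.68e-06), 27.5-fold. CAV1, the main protein of caveolae, was higher by 1.68 ± 0.25 (limma, adjusted p = 0.000984), and ARF6, a GTPase of integrin recycling, by 2.17 ± 0.22 (limma, adjusted p = 6.75e-05). RAB11FIP1, a coupling protein of recycling endosomes, was lower (−2.03 ± 0.29; limma, adjusted p = 0.000727). CD82, a tetraspanin known as a suppressor of metastasis, was higher by 2.38 ± 0.68 (limma, adjusted p = 0.0398), a call lost without any 1 of 8 arrays (adjusted p up to 0.125). Of the 4 hemidesmosome partners, 3 were tested and 1 passed: DST, the plakin that links ITGB4 to keratin, was higher by 1.28 ± 0.18 (limma, adjusted p = 0.000573).

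The 16 other integrin subunits serve as the nearest comparison. Of these 11 were tested and 2 passed without the field, both higher in CL1-5, where 15.6% of all genes tested passed. ITGA4, which binds VCAM1 and fibronectin, was higher by 3.27 ± 0.37 (limma, adjusted p = 0.000124). With values under the array median counted as that median it was 9.08-fold higher. ITGA1, a collagen-binding chain, was higher by 1.94 ± 0.52 (limma, adjusted p = 0.0308), a call lost without any 1 of 5 arrays (adjusted p up to 0.125). With the field these 2 were again higher, the ITGA1 call being lost without any 1 of 3 arrays (adjusted p up to 0.0721), and ITGA7, a laminin-binding chain best known from muscle, was lower (−2.68 ± 0.81; limma, adjusted p = 0.0484), a call lost when any 1 of 11 arrays was left out (adjusted p up to 0.177). With the replicate block 4 of the other subunits and 2 of the hemidesmosome partners passed without the field, where 34.2% of all genes passed. The medians of the line difference without the field were 1.97 log2 units over the 9 integrin genes described, 0.52 over these 11, 0.51 over the tail partners, 1.28 over the 3 hemidesmosome partners, 0.70 over the ligands and 0.17 over the surface partners, beside −0.030 over all genes tested. With the field, where 17.1% of all genes passed, 8.79% higher and 8.27% lower, the counts higher and lower were 5 and 1 of the integrin genes described, 2 and 1 of the others, 6 and 0 of the tail partners, 1 and 0 of the hemidesmosome partners, 11 and 7 of the ligands and 4 and 2 of the surface partners. In the field comparisons none of these lists held a gene past the test (limma), as none did among all genes.

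**Figure D5:**
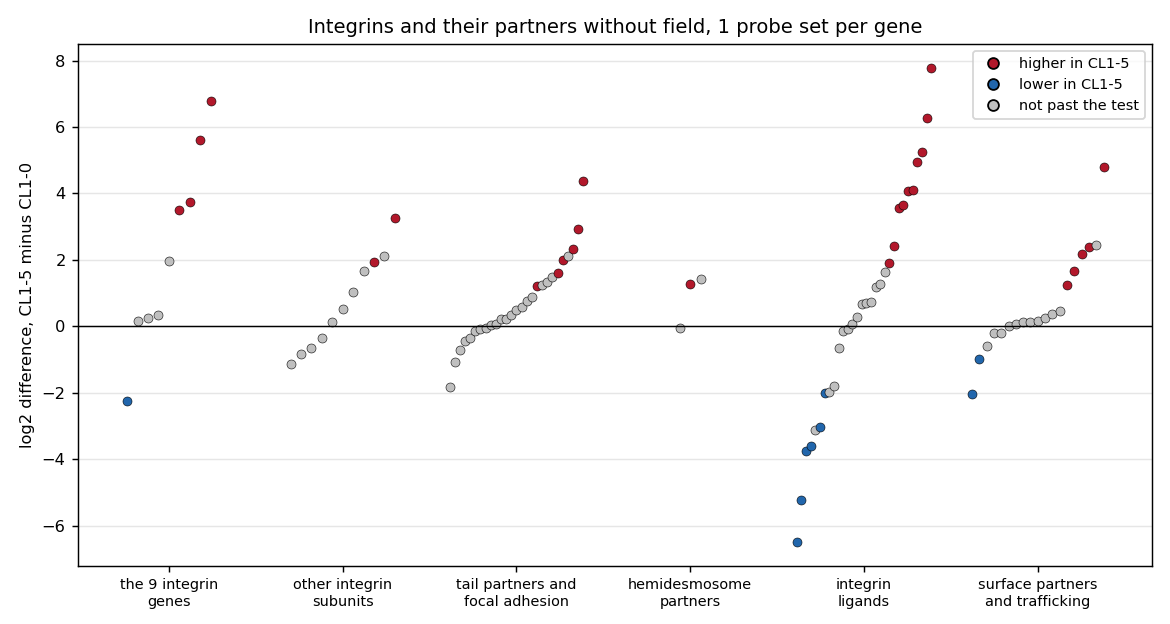
Each point is a gene, read by its brightest probe set, in columns for the 9 integrin genes and 5 lists of genes that work with them. The y axis is the log2 difference of CL1-5 minus CL1-0 without the field. Red points passed the test as higher in CL1-5, blue points as lower, and grey points did not pass. Of the integrin genes 4 are red and 1 is blue, and the ligand column holds points of both colours.

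The arrays read as epithelial cell lines in part. KRT18, an epithelial keratin, had a mean log2 signal of 14.03 ± 0.31 in CL1-5 cells and 12.69 ± 1.33 in CL1-0 cells without the field (SD, n = 3 each), and KRT8 gave 11.68 ± 0.38 in CL1-5 cells and 9.53 ± 1.63 in CL1-0 cells. EPCAM and CDH1, the epithelial adhesion molecules, were lower in CL1-5, with differences of −3.96 ± 0.84 and −3.46 ± 0.99 log2 units without the field (limma, adjusted p = 0.00898 and 0.0413), and the CDH1 call was lost without any 1 of 7 arrays (adjusted p up to 0.163). KRT19 was too dim to test. Of the 5 epithelial markers tested these 2 passed, in both line comparisons. The 3 lung lineage markers NKX2-1, SFTPB and NAPSA summed to 304 to 519 units over all arrays, beside array medians of 60.7 to 72.4 for a single probe set, and none passed (limma). Of the leukocyte markers, 0 of 4 lay above the array median on every array of any group, and they summed to 99.1 to 321 units. The 4 endothelial markers summed to 331 to 1735 units on the CL1-5 arrays with the field and 417 to 1202 on those without, and 184 to 208 on the CL1-0 arrays with the field and 138 to 219 on those without. The ranges of the lines did not overlap, with PECAM1 and KDR as the 2 genes bright enough to test and CDH5 and VWF too dim. The part of these markers, and of the lower EPCAM and CDH1, in the integrin differences between the lines was not tested. Fibroblast markers summed to 313 to 898 units over all arrays and platelet markers to 299 to 588, and none of the leukocyte, endothelial, fibroblast or platelet markers passed (limma). In the cells without the field, KRT8 and PECAM1 passed as higher in CL1-5 and COL3A1 as lower once the replicate block was fitted (limma, adjusted p = 0.0202, 0.00306 and 0.048). With the field and the block, the 2 endothelial markers tested and 1 of the 4 fibroblast markers tested passed, where 37% of all genes did. ITGB2 and ITGA2B stand in the leukocyte and platelet lists and also among the other integrin subunits, and COL1A1, COL1A2 and COL3A1 stand in the fibroblast and the ligand lists.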

How the data were processed

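RNA of 12 samples was labelled with biotin from 10 µg of total RNA per the labels' protocols and hybridised to single-colour Affymetrix arrays of 54675 probe sets. The deposited values are linear intensities made with MAS5, per the submitters' processing notes, which give no version. On every array the mean with 2% trimmed from each end lies between 500.07 and 500.08, so the arrays were scaled to a common mean by the authors. Gene symbols came from the platform annotation, where 41091 probe sets have 1 symbol, 1801 several and 11721 none, besides 62 controls.

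Here values under 1 (3691 of them) were set to 1 and log2 was taken. Probe sets above their own array's median on at least 3 arrays were kept, 31890 in all, and fitted with limma 3.58.1 in R 4.3.3 (lmFit, contrasts.fit, eBayes with trend; 4 group means, 6 comparisons), with Benjamini-Hochberg adjustment over all of them and a threshold of 0.05. The code was tested on simulated data. All integrin genes of the list are named, each led by its probe set of highest mean log2 signal, and other probe sets where they passed or opposed the lead in sign. From each partner list up to 5 genes past the test with the largest line differences without the field are named, and marker lists are given by their counts and summed signal, with examples; 211905_s_at, 214020_x_at, 1553530_a_at, 1553678_a_at and 211579_at were added after their values were seen. The integrin genes and all lists were chosen with earlier results of these data known. ITGB6 is not reported as a gene.

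The labels call the 3 samples of a group biological replicates and state no pairing by number. Same-numbered arrays deviated together, with correlations of deviations from the group means of 0.254 to 0.665. The replicate 1 arrays gave the highest, 0.551 to 0.665. For replicates 2 and 3 a different number also reached 0.285 to 0.322. For replicate 3 a different number correlated more between the CL1-5 groups (0.32 against 0.27) and between the lines without the field (0.286 against 0.254). The correlations set replicate 1 apart and do not establish that the numbers pair replicates 2 and 3. The fit with the number as a block is given where it changes a call. No 2 arrays held identical values. Alternatives were 13 other settings and leaving out each of the 12 arrays. Start-site sequences are RefSeq's, GRCh38.p14.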

Additional observations from a re-analysis of the deposited data

Results flagged for a closer look

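Probe set 239517_at, annotated to LINC02478 and ITGB6 and below the array median on nearly all arrays, moved one way in every same-numbered pair of arrays of one line and the other way in every pair of the other line. Its mean field difference was −1.57 log2 units in CL1-5, with pairs of −0.96, −1.77 and −1.97, and 0.65 log2 units in CL1-0, with pairs of 0.64, 0.20 and 1.11. The difference between the lines was not tested, because the probe set is too dim for the fit, and a signal this low carries no measured level.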

How the results depend on the processing

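With the field and without it, the line differences of ITGA2, ITGA3, ITGA6, ITGAV and ITGB3 kept their direction and passed in all 25 alternatives. Their adjusted p ranged over 1.03e-05 to 0.0317, 0.000136 to 0.038, 6.58e-06 to 0.00607, 5.21e-07 to 0.00221 and 1.14e-06 to 0.000645 with the field, and over 3.91e-06 to 0.0117, 4.87e-05 to 0.0204, 3.6e-07 to 0.000451, 6.01e-07 to 0.000441 and 4.12e-07 to 0.00033 without it. ITGB5 with the field no longer passed with the mean of its probe sets (0.20 log2 units, adjusted p = 0.621), with only the compared groups in the fit (adjusted p = 0.0573), or without CL1-0 field replicate 3. With spike-in signal, present or absent, as a block, ITGA5 passed too (adjusted p = 0.00124 with and 0.000163 without the field). The causes were not tested. No result past the test changed sign. Counted over lead probe sets and alternatives together, values not past the test changed sign 1 time with the field and 4 times without it, and 27, 14, 18 and 18 times in the field comparisons.

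Counted over genes in place of probe sets, 6 integrin genes passed with the field by their brightest probe set and 5 by the mean of their probe sets, and 5 and 5 without the field; fewer features are counted there by construction. Leaving out 1 array at a time gave 8 to 13 integrin probe sets with the field, 10 to 12 without it and 0 to 0 in each field comparison. With the replicate block 16 and 15 integrin probe sets passed in the line comparisons and 0 in the field comparisons; apart from the results given beside their values, the block changed no call of a lead probe set.

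Over all probe sets, the count with the field was 4286, against 10069 with the replicate block, 9977 with that spike-in block, 8077 on the arrays with spike-in signal, 2691 and 2150 over genes, and 2816 and 2635 without CL1-0 field replicate 2 or 3. The count without the field was 3864, against 9094, 8994, 7629, 2487 and 2049 in the same settings. In CL1-5 1 probe set passed for the field with the spike-in block, on the arrays with spike-in signal or without CL1-5 field replicate 1, and in CL1-0 1 with the replicate block, the spike-in block or without CL1-0 field replicate 3. Fitting only the compared groups gives no value for the averaged field effect or its difference between lines, and the stricter filter none for ITGB4. Readings under the array medians, as in ITGB4 and in CL1-0 for ITGA2 and ITGB3, limit those values to bounds.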
